A study of Rattus norvegicus with 6 samples.

Results

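The lysosomal genes examined here were 43 genes for hydrolases, membrane proteins and proton pump subunits of the lysosome, together with Tfeb, and they were chosen by name from the 19616 genes with FPKM values in rat liver. Each name matched 1 entry, and all 43 genes were tested, since each averaged 0.1 FPKM or more, as did 14864 of all genes. RNA depleted of ribosomal RNA was sequenced from whole liver of male SD rats, 3 in each group, with 1 library per rat. Rats FL2, FL5 and FL12 (FL group) had been injected intraperitoneally with CCl4 (carbon tetrachloride, which is toxic to hepatocytes) mixed with olive oil, in 2 weekly doses of 2 mL/kg over 5 weeks, and rats CL5, CL6 and CL7 (CL group) with olive oil alone at equal volume. FL5 and CL5 are different rats. FPKM, which scale the fragments of each gene by transcript length and library size, allow levels to be compared between genes. Total reads were not used here. If the most frequent value above 0 among the 114 U6 RNA genes stands for 1 fragment in each rat, relative depth can be estimated from it. The depth of CL6, CL7, FL2, FL5 and FL12 would then be 0.656, 0.840, 0.677, 0.750 and 0.677 of that of CL5.

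Lysosomes are acidic organelles in which proteins, glycans, lipids and nucleic acids from endocytosis, phagocytosis and autophagy are broken down. Their hydrolases are made in the endoplasmic reticulum, tagged with mannose 6-phosphate and sorted to the organelle, where a proton pump, the V-ATPase, keeps the pH low, and the transcription factor TFEB and its relatives switch on many of these genes together. In liver, hepatocytes carry a large lysosomal compartment of their own, and macrophages, with their high phagocytic load, are rich in several cathepsins.

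Of the 43 lysosomal genes, 10 were upregulated in the FL group (23.3%, against 9.29% of all genes tested), where upregulated means at least 2-fold higher with an adjusted p under 0.05. These were the cathepsin genes Ctsk, Ctsz, Ctss, Ctsd and Ctse, the legumain gene Lgmn, Asah1, Ppt1, Cd63 and the proton pump gene Atp6v0d2. None was downregulated by limma (0 of 43, against 0.935% of all genes), and 0 were lower at an unadjusted p under 0.05. Without the fold limit, 20 were higher (46.5%, against 16.9% of all genes) and 0 were lower (against 1.94%). In 26 of the 43 each FL rat lay above each CL rat, which was so for 35.7% of all genes, and in 0 each FL rat lay below each CL rat (4.78% of all genes). In whole liver, more cells of a type and more RNA per cell cannot be told apart.

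The log2 difference between the groups (FL minus CL) on the log2(FPKM + 0.1) scale, which understates the change of genes with low FPKM, had a median of 0.29 over all genes tested. Median scaling brought this median to 0.08 and quantile normalization to -0.04, so relative differences, from which the median of all genes has been subtracted, are given beside the unscaled ones. The median relative log2 difference of the 43 genes was 0.20, with members from -0.50 (Ctsc) to 1.42 (Ctsk) and 30 of 43 above 0. Without FL5 the median was 0.07, and without FL5, CL7, CL5, CL6 or FL12 the number of higher genes without a fold limit was 10, 8, 11, 12 and 12. The share of all genes that were higher was not counted in these runs. With the fold limit, 18.6% to 20.9% of the members were upregulated in them, against 4.59% to 6.47% of all genes. With median scaling 6 members were upregulated (against 5.56% of all genes) and with quantile normalization 8 (against 3.05%), and either scaling left 11 higher without a fold limit (25.6%, against 8.75% of all genes with median scaling and 5.23% with quantile normalization) and 0 lower (against 3.59% and 3.61%). Of the 10 members that were higher by less than 2-fold, Grn, Tfeb and Arsb kept an adjusted p under 0.05 with median scaling, and Grn, Ctsb and Psap with quantile normalization.

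**Figure D1:**
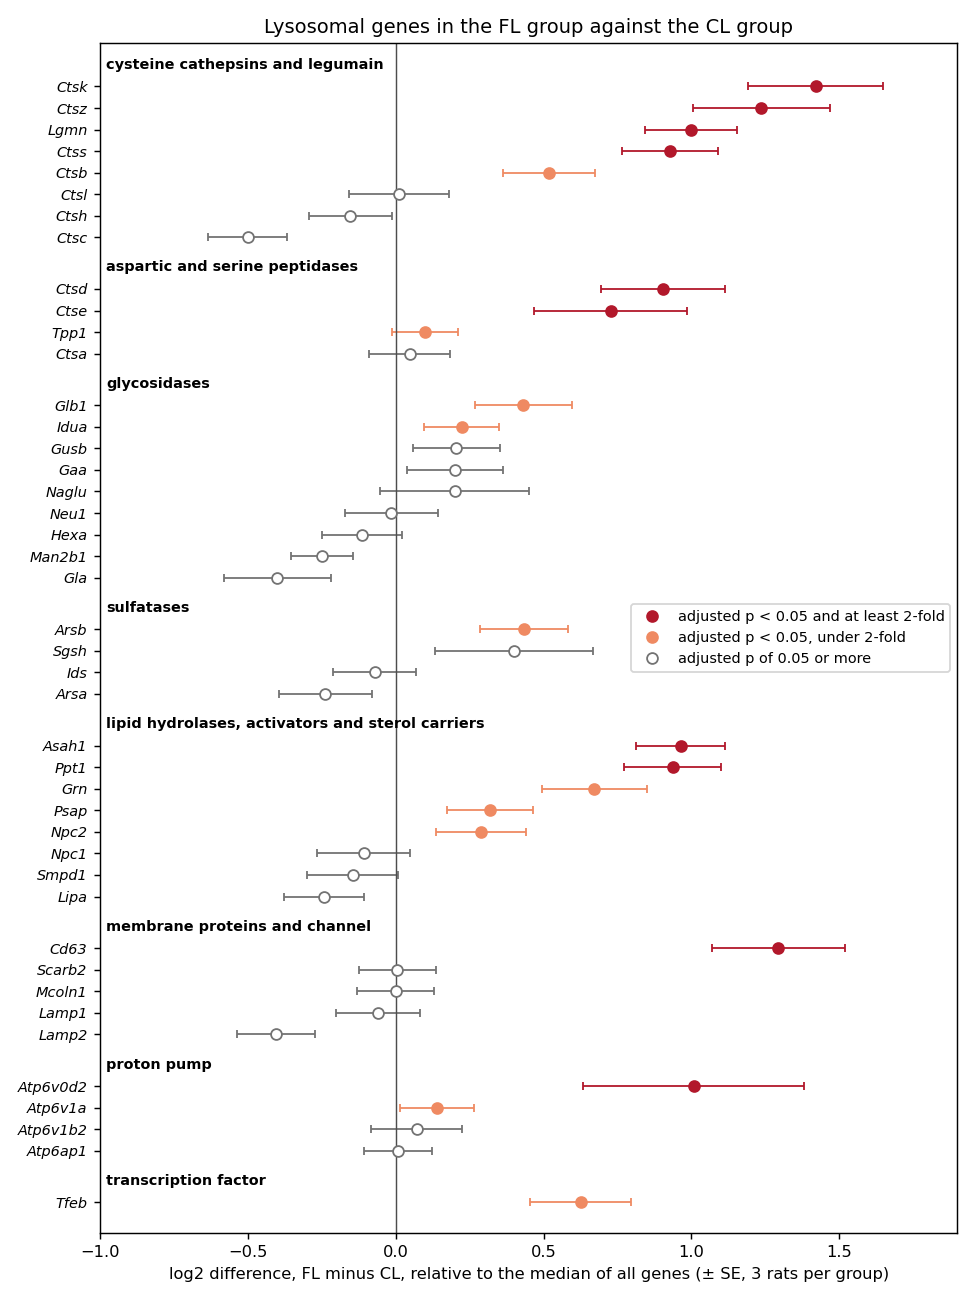
Log2 difference, FL minus CL, for each of the 43 lysosomal genes, by role, relative to the median of all genes tested (x axis; bars, moderated standard error, 3 rats per group). Filled dark points mark the 10 upregulated genes, filled light points the 10 genes with an adjusted p under 0.05 and less than a 2-fold change, and open points the other 23, with Ctsc lowest at -0.50 and Ctsk highest at 1.42.

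Summed over the 43 genes, lysosomal mRNA took 0.518% of the total FPKM in CL5, 0.440% in CL6 and 0.471% in CL7, against 0.634% in FL2, 0.806% in FL5 and 0.717% in FL12. The groups did not overlap in this share, and FL5 was the highest. The total itself was 309425 to 340467 FPKM in the CL rats, against 309226 in FL2, 272350 in FL5 and 272110 in FL12. A lower total raises the share of any gene, and the median log2 difference of all genes was 0.29. A higher share alone therefore does not set the lysosomal genes apart. In the members' summed FPKM, from 1486 to 1603 in the CL rats and from 1951 to 2194 in the FL rats, the cysteine cathepsins and legumain made up the largest role, with 589 to 660 FPKM in the CL rats and 796 to 902 FPKM in the FL rats.

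Cysteine cathepsins cleave proteins in the acidic lumen, and legumain, an asparaginyl endopeptidase, cuts some of them into their mature forms. Of these 8 genes, 4 were upregulated (50%, against 9.29% of all genes). With 1 more that stayed under 2-fold, 62.5% were higher (against 16.9%), and 3 did not pass. Ctsk, which encodes the collagen-degrading cathepsin K known from osteoclasts, read 0.49 FPKM in CL5, 0.78 in CL6 and 0.68 in CL7, against 2.06 in FL2, 2.17 in FL5 and 2.79 in FL12. The groups were well separated at this low level. Its log2 difference was 1.71 (standard error 0.23, adjusted p = 0.00482 from limma), or 1.42 relative to all genes, the largest of the 43. Ctsz, for the carboxypeptidase cathepsin Z, read 15.9 FPKM in CL5, 11.1 in CL6 and 8.03 in CL7, against 30.2 in FL2, 37.3 in FL5 and 30.5 in FL12. The lowest FL rat stood well above CL5, the highest CL rat. The log2 difference of Ctsz was 1.52 (standard error 0.23, adjusted p = 0.00634), or 1.24 in relative terms.

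Lgmn read 19.9 FPKM in CL5, 25.8 in CL6 and 21.7 in CL7, against 50.8 in FL2, 65.5 in FL5 and 48.9 in FL12. FL5 was highest and the groups were far apart, with a log2 difference of 1.29 (standard error 0.16, adjusted p = 0.00383) and a relative difference of 1.0. Ctss encodes cathepsin S, which antigen-presenting cells use to degrade the invariant chain of MHC class II. It read 11.1 FPKM in CL5, 8.19 in CL6 and 9.62 in CL7, against 26.4 in FL2, 22.1 in FL5 and 19.2 in FL12. Unlike most of the upregulated members, Ctss was highest in FL2 and lowest in FL12. Its log2 difference of 1.22 (standard error 0.16, adjusted p = 0.00475; 0.93 relative) fell just under 2-fold with median scaling, at 0.99, where its adjusted p was 0.0164 (0.00345 to 0.0271 over all alternatives).

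Ctsb, for cathepsin B, had the highest mean level of the 43 genes, with 163 FPKM in CL5, 161 in CL6 and 170.0 in CL7, against 271 in FL2, 338 in FL5 and 262 in FL12. The groups did not overlap, and its log2 difference of 0.81 (standard error 0.15, adjusted p = 0.0129; 0.52 relative) stayed under 2-fold. Ctsl, for the endopeptidase cathepsin L, read 229 FPKM in CL5, 169 in CL6 and 168 in CL7, against 239 in FL2, 216 in FL5 and 235 in FL12. CL5 reached into the range of the FL rats, and the log2 difference was 0.30 (95% confidence interval from -0.09 to 0.69, adjusted p = 0.238), 0.01 above the median of all genes. Ctsc, for the dipeptidyl peptidase that activates serine proteases of granules, read 130.3 FPKM in CL5, 106 in CL6 and 123 in CL7, against 109 in FL2, 98.5 in FL5 and 101 in FL12. CL6 lay inside the range of the FL rats, and the log2 difference of Ctsc was -0.21 (95% confidence interval from -0.52 to 0.09, adjusted p = 0.283), or -0.50 in relative terms, the lowest of the 43. Ctsh, for cathepsin H, had a log2 difference of 0.13 (95% confidence interval from -0.19 to 0.46), which became -0.09 with median scaling.

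Among the 4 aspartic and serine peptidases, Ctsd and Ctse were upregulated (50%, against 9.29% of all genes). With Tpp1, which stayed under 2-fold, 75% were higher (against 16.9%). Ctsa, the protective protein of the neuraminidase and galactosidase complex, did not pass. Ctsd, for the main aspartic protease of the lysosome, read 49.3 FPKM in CL5, 39.8 in CL6 and 33.5 in CL7, against 74.4 in FL2, 120.3 in FL5 and 87.9 in FL12. FL5 was the highest rat, and each FL rat lay above the CL rats. The log2 difference of Ctsd was 1.19 (standard error 0.21, adjusted p = 0.0101; 0.90 relative). With median scaling it was 0.97, under 2-fold, with an adjusted p of 0.021 (0.00827 to 0.0459 over all alternatives). Ctse, for an aspartic protease of endosomes in immune and epithelial cells, read 0.31 FPKM in CL5, 0.31 in CL6 and 0.32 in CL7, against 0.60 in FL2, 0.75 in FL5 and 0.88 in FL12. Both groups had low values, and its log2 difference of 1.02 (standard error 0.26, adjusted p = 0.0326 from limma) kept its call in 4 of the 13 alternatives in which it could be tested, over which the adjusted p ran from 0.0166 to 0.286. Tpp1, the gene for tripeptidyl peptidase 1, averaged 22.8 ± 1.46 FPKM in CL rats and 29.8 ± 2.22 FPKM in FL rats (SD, n = 3 per group), a log2 difference of 0.39 (adjusted p = 0.0468 from limma) that lay 0.10 above the median of all genes.

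None of the 9 glycosidase genes or the 4 sulfatase genes was upregulated (against 9.29% of all genes, a share at which so few genes would hold few calls), with 0 of 9 and 0 of 4 lower by limma at an unadjusted p under 0.05 as well. These enzymes strip sugars and sulfate groups from glycoproteins, glycolipids and glycosaminoglycans. Glb1 (beta-galactosidase), Idua (alpha-L-iduronidase) and Arsb (arylsulfatase B) were higher at an adjusted p under 0.05. Glb1 went from 5.53 ± 0.603 to 9.24 ± 1.69 FPKM, a log2 difference of 0.72 (adjusted p = 0.023 from limma, SD over n = 3 rats). Arsb, which acts on dermatan and chondroitin sulfate, went from 5.58 ± 0.598 to 9.30 ± 1.41 FPKM, a log2 difference of 0.72 (adjusted p = 0.0163 from limma, SD over n = 3 rats). For Idua the log2 difference was 0.51 (adjusted p = 0.031). Gusb (beta-glucuronidase) missed the limit narrowly, with a log2 difference of 0.49 (adjusted p = 0.0503) and no overlap of the groups. The other 6 glycosidases, Gaa, Naglu, Neu1, Hexa, Man2b1 and Gla, had relative log2 differences from -0.40 (Gla) to 0.20 (Gaa). Man2b1, for lysosomal alpha-mannosidase, differed little, with 61.4 ± 2.0 FPKM in CL rats and 63.1 ± 1.59 FPKM in FL rats (95% confidence interval of the log2 difference from -0.20 to 0.28). The other sulfatases, Sgsh, Ids and Arsa, lay between -0.24 and 0.40 relative to all genes. The entry named Ids is placed on chromosome 8 beside the FPKM values and on chromosome X by RefSeq, so what its reads stand for is uncertain.

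The lipid hydrolases, their activators and the sterol carriers held 2 upregulated genes of 8, Asah1 and Ppt1 (25%, against 9.29% of all genes). With 3 more that stayed under 2-fold, 62.5% were higher (against 16.9%). Asah1, for acid ceramidase, which splits ceramide into sphingosine and a fatty acid, read 6.07 FPKM in CL5, 5.07 in CL6 and 5.12 in CL7, against 10.9 in FL2, 14.4 in FL5 and 14 in FL12. FL2 was the lowest FL rat and still lay well above CL5. The log2 difference of Asah1 was 1.25 (standard error 0.15, adjusted p = 0.00368; 0.96 relative), with the lowest adjusted p of the 43 genes. Ppt1, for the thioesterase that removes palmitate from proteins, read 6.39 FPKM in CL5, 6.72 in CL6 and 5.89 in CL7, against 11.9 in FL2, 17.8 in FL5 and 15.7 in FL12. The order of the FL rats was that of Asah1, and the log2 difference was 1.22 (standard error 0.16, adjusted p = 0.00476; 0.94 relative).

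Psap, the precursor of the saposins that present sphingolipids to their hydrolases, read 119 FPKM in CL5, 111 in CL6 and 104 in CL7, against 154 in FL2, 196 in FL5 and 160.0 in FL12. It was higher in each FL rat, with a log2 difference of 0.61 (standard error 0.15, adjusted p = 0.027; 0.32 relative). Grn, for progranulin, a partner of prosaposin on the way to the lysosome, just missed the 2-fold limit at 0.96 (standard error 0.18, adjusted p = 0.0113; 0.67 relative), with 29.4 ± 1.05 FPKM in the CL group against 49.7 FPKM in FL2, 76.2 in FL5 and 49.7 in FL12. The pair of cholesterol carriers differed in their tests, since Npc2, the soluble carrier, had a log2 difference of 0.58 (adjusted p = 0.0359) and Npc1, the membrane protein, of 0.18 (95% confidence interval from -0.18 to 0.54, adjusted p = 0.437), but the difference between them was not tested. Lipa, for acid lipase, had 36.6 ± 3.66 and 37.9 ± 5.08 FPKM (95% confidence interval of the log2 difference from -0.27 to 0.36), and Smpd1, for acid sphingomyelinase, 46.8 ± 6.93 and 51.6 ± 7.69 FPKM (95% confidence interval from -0.22 to 0.50). Relative to all genes, both had values under 0, at -0.24 and -0.15.

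Of the 5 membrane proteins, 1 passed the test, Cd63 (20%, near the 16.9% of all genes that were higher without the fold limit). Cd63 is a tetraspanin of late endosomes, lysosomes and exosomes, and it read 9.98 FPKM in CL5, 7.91 in CL6 and 6.52 in CL7, against 23.1 in FL2, 32.5 in FL5 and 19.0 in FL12. All FL rats lay above all CL rats, FL5 the furthest. Its log2 difference was 1.58 (standard error 0.22, adjusted p = 0.00519; 1.29 relative). Lamp1 and Lamp2, the heavily glycosylated proteins that line the lysosomal membrane, had far higher levels than Cd63. Lamp1 read 92.9 FPKM in CL5, 101 in CL6 and 102 in CL7, against 106 in FL2, 137 in FL5 and 107 in FL12. The FL rats lay above the CL rats by little, with a log2 difference of 0.23 (95% confidence interval from -0.10 to 0.56, adjusted p = 0.287; -0.06 relative). Lamp2 read 148 FPKM in CL5, 142 in CL6 and 159 in CL7, against 151 in FL2, 134 in FL5 and 129 in FL12. Its groups overlapped, and its log2 difference was -0.12 (95% confidence interval from -0.42 to 0.19, adjusted p = 0.557; -0.41 relative). Scarb2, which carries glucocerebrosidase to the lysosome, and the calcium channel gene Mcoln1 both had a log2 difference of 0.29, the same as the median of all genes at this precision.

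The V-ATPase consists of a membrane sector, V0, through which protons pass, and a sector that hydrolyses ATP, V1. Atp6v0d2, for the d2 isoform of a V0 subunit that is known from osteoclasts, macrophages and kidney, read 0.48 FPKM in CL5, 0.20 in CL6 and 0.67 in CL7, against 1.21 in FL2, 0.91 in FL5 and 1.40 in FL12. All FL rats were higher, at a level near 1 FPKM. Its log2 difference was 1.30 (standard error 0.37, adjusted p = 0.0471; 1.01 relative), and the call held in 1 of the 13 alternatives in which the gene could be tested, over which the adjusted p ran from 0.0383 to 0.3. The widely expressed isoform Atp6v0d1 read 59.7 FPKM in CL5, 50.4 in CL6 and 55.6 in CL7, against 67.0 in FL2, 59.8 in FL5 and 57.1 in FL12, so d2 made up 0.395% to 1.19% of the FPKM of both isoforms in the CL rats and 1.5% to 2.39% in the FL rats. Atp6v1a, the catalytic subunit of V1, had a log2 difference of 0.43 (adjusted p = 0.048), while Atp6v1b2 and Atp6ap1 did not pass, at 0.36 and 0.30. Of the 16 other subunits tested, 1 was upregulated (6.25%, under the 9.29% of all genes), 4 were higher without the fold limit (25%, against 16.9%), and 0 were lower, with a median relative log2 difference of -0.08. With either scaling, and without CL5, FL5 or FL12, 0 of the 16 were higher. Of all genes 8.75% were higher with median scaling and 5.23% with quantile normalization, shares at which 16 genes would hold few calls. The share of all genes was not counted with a rat left out. With median scaling 1 of the 16 was lower (against 3.59% of all genes), Atp6v0a1 (log2 difference -0.45, adjusted p = 0.035 from limma). The upregulated one was Atp6v1c2, an isoform of low level that read 0.05 FPKM in CL5, 0.19 in CL6 and 0.06 in CL7, against 0.37 in FL2, 0.44 in FL5 and 0.44 in FL12 (log2 difference 1.43, adjusted p = 0.038), a call kept in 6 of the alternatives, over which the adjusted p ran from 0.0254 to 0.177.

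Tfeb, for the factor that drives lysosomal biogenesis, read 2.12 FPKM in CL5, 1.52 in CL6 and 1.59 in CL7, against 3.20 in FL2, 3.35 in FL5 and 3.47 in FL12. The FL rats were close to each other and above each CL rat. The log2 difference of Tfeb was 0.91 (standard error 0.17, adjusted p = 0.0122; 0.63 relative), under the 2-fold limit. Its adjusted p was 0.105 with quantile normalization, 0.0549 without CL7 and 0.0525 without FL5. Of its relatives, Tfec had a log2 difference of 0.90 (adjusted p = 0.0176, but 0.066 with median scaling and 0.173 with quantile normalization), Mitf of 0.44 (adjusted p = 0.166) and Tfe3 of 0.21 (adjusted p = 0.308). TFEB acts once it has moved into the nucleus, which mRNA levels do not show.

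**Figure D2:**
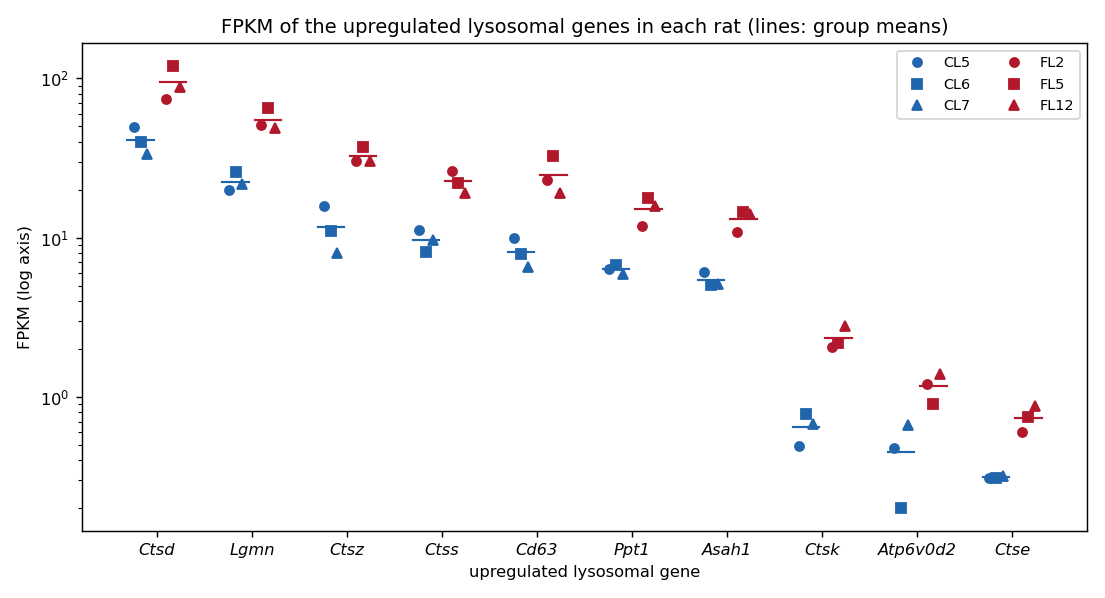
FPKM (log axis) of the 10 upregulated lysosomal genes in each of the 6 rats, CL in blue and FL in red, with short lines at the group means, ordered by their mean in the CL group. For each gene the 3 FL rats lie above the 3 CL rats, from Ctsd with 94.2 FPKM to Ctse with 0.743 FPKM on average in the FL group. The genes were selected by their increase in these same rats, so the separation is no further result.

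The 10 upregulated genes spanned levels from 0.313 FPKM (Ctse) to 40.9 FPKM (Ctsd) on average in the CL group. None of the 7 genes with the highest mean over the 6 rats, Ctsb, Ctsl, Lamp2, Psap, Ctsc, Lamp1 and Ctsh, was among them, while Ctsd, at rank 8, was. Calls were rarer at high levels among all genes tested. Of the 1572 with a mean above 20 FPKM 2.61% were upregulated, and of those below 10.1%. Among the members, 3 of 20 above this level were upregulated (15%) and 7 of 23 below it (30.4%). Most of the upregulated genes, 6 of 10, were highest in FL5, while 3 were highest in FL12 and 1 in FL2. Of all genes tested, 36.4% were highest in FL5, 41.1% in FL12 and 22.6% in FL2. The sum of the 10 genes was 120 FPKM in CL5, 106 in CL6 and 92.1 in CL7 and 231 FPKM in FL2, 314 in FL5 and 240.1 in FL12. The 10 genes were selected by their increase in these same rats, so higher sums in the FL group follow from that selection.

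Beyond the 43 genes, 103 of 118 listed symbols of the lysosomal pathway could be tested, and 14 of these genes were upregulated (13.6%, against 9.29% of all genes tested), 36 were higher without the fold limit (35.0%, against 16.9%) and 1 was lower (against 1.94%). They had a median relative log2 difference of 0.08. The number upregulated became 5 with a pseudocount of 1 (4.85%, against 3.11% of all genes) and 7 with median scaling (6.80%, near the 5.56% of all genes). It became 6 with quantile normalization (5.83%, against 3.05%), and 8 without CL7 (7.77%, against 4.82%) or without FL5 (7.77%, against 4.59%). The 36 higher genes became 19 with median scaling (18.4%, against 8.75% of all genes) and 14 with quantile normalization (13.6%, against 5.23%). With each rat left out they became 15 to 39 (14.6% to 37.9%), where the share of all genes was not counted. The hydrolases and activators held 5 upregulated genes of 27, the membrane proteins and transporters 5 of 22, the sorting machinery 2 of 18, the MiT/TFE factors and Rag regulators 1 of 17, and the cystatins, which inhibit cysteine cathepsins, 0 of 3. Gpnmb, for a glycoprotein of lysosomes and melanosomes, had the largest difference of the 103, with 4.25 FPKM in CL5, 3.65 in CL6 and 4.11 in CL7, against 64.7 in FL2, 144 in FL5 and 92.9 in FL12 (log2 difference 4.54, standard error 0.26, adjusted p = 3.64e-04). FL5 was again the highest rat. Mcoln3, a relative of Mcoln1 at a far lower level, read 0.12 FPKM in CL5, 0.10 in CL6 and 0.03 in CL7, against 0.56 in FL2, 0.73 in FL5 and 0.70 in FL12 (log2 difference 2.09, adjusted p = 0.00814), a call kept in 12 of the 13 alternatives in which it could be tested.

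Pld3, for an exonuclease of the lysosome, went from 5.10 ± 0.595 to 18.2 ± 5.28 FPKM, and Cd68, the macrophage relative of the LAMP proteins, from 11.7 ± 0.605 to 38.7 ± 8.70 FPKM. Laptm5, a lysosomal membrane protein of blood cells, went from 6.29 ± 0.643 to 18.5 ± 2.92 FPKM and Scpep1, a serine carboxypeptidase, from 14.6 ± 2.79 to 39.5 ± 7.79 FPKM. The log2 differences of these 4 genes lay between 1.42 (Scpep1) and 1.78 (Pld3). Rragd, for a Rag GTPase that carries nutrient signals to mTORC1 at the lysosome, read 0.68 FPKM in CL5, 0.21 in CL6 and 0.39 in CL7, against 0.71 in FL2, 1.74 in FL5 and 1.98 in FL12 (log2 difference 1.57, adjusted p = 0.0482). FL2 barely exceeded CL5, and the call was kept in 2 of the alternatives, over which the adjusted p ran from 0.0177 to 0.19. On the sorting side, Igf2r, the large receptor for mannose 6-phosphate, was upregulated (log2 difference 1.05, adjusted p = 0.0119), a call kept in 8 of the 14 alternatives, over which the adjusted p ran from 0.00452 to 0.0566. With either scaling its log2 difference was 0.83, under 2-fold. M6pr, the small receptor, had a log2 difference of 0.20 (adjusted p = 0.278), and the difference between the 2 receptors was not tested. The lower gene was Mfsd8, a transporter of the lysosomal membrane, which read 2.73 FPKM in CL5, 3.61 in CL6 and 2.77 in CL7, against 1.72 in FL2, 2.19 in FL5 and 1.40 in FL12 (log2 difference -0.76, adjusted p = 0.0409). Over the alternatives its adjusted p ran from 0.0196 to 0.126, and it was downregulated past 2-fold in 1 of them, quantile normalization (-1.19). Igf2r, M6pr, Mfsd8, the isoform Atp6v0d1 and the relatives of Tfeb were picked out after their values were seen.

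Some markers of other cells were higher as well and others were not, and their part in the lysosomal differences was not tested. Among all genes 9.29% were upregulated and the median log2 difference was 0.29, so a value above 0 was common. Of 15 macrophage markers, 13 had a log2 difference above 0, 12 had a relative one above 0, and none was listed at 0 FPKM. Of the same 15, 4 were upregulated (26.7%) and 0 downregulated. Csf1r kept its call in 11 of the 14 alternatives and the other 3, Marco, Itgam and Lyz2, in each. They summed to 253 FPKM in CL5, 243 in CL6 and 244 in CL7, against 483 in FL2, 478 in FL5 and 293 in FL12. The most abundant by the mean over the 6 rats, C1qc, read 43.7 FPKM in CL5, 43.5 in CL6 and 39.6 in CL7, against 77.4 in FL2, 81.4 in FL5 and 47.3 in FL12 (adjusted p = 0.0595 from limma). FL12 had the macrophage sum nearest to the CL rats. Of 5 markers of scar-associated macrophages 4 were upregulated and none was at 0, with sums of 11.2 FPKM in CL5, 11.5 in CL6 and 7.89 in CL7, against 26.9 in FL2, 102 in FL5 and 65.1 in FL12. Spp1 was the most abundant by the mean over the 6 rats, but in each CL rat Fabp5 was higher than Spp1. Trem2 and Lgals3 kept their calls in each alternative, Spp1 in 11 and Cd9 in 10.

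The stellate cell or myofibroblast markers, of which 9 of 10 could be tested and 4 were upregulated, had sums of 88.3 FPKM in CL5, 94.2 in CL6 and 85.4 in CL7, against 206 in FL2, 546 in FL5 and 494 in FL12. Col3a1 was the most abundant of them, and none was at 0. For the lymphocyte markers the sums were 12.3 FPKM in CL5, 10.3 in CL6 and 11.2 in CL7, against 23.3 in FL2, 30.6 in FL5 and 24.0 in FL12. Of 8 tested, 1 was upregulated (12.5%, near the 9.29% of all genes), Cd4, which was also the most abundant and carried the sum. Without Cd4 the sums were 1.99 to 2.93 FPKM in the CL rats, and of the FL rats FL12, at 2.68 FPKM, lay inside this range. Ms4a1 was listed at 0 in CL5. Cycling cell markers, led by Mki67, had 2 of 6 upregulated and none at 0, with sums of 2.59 FPKM in CL5, 4.72 in CL6 and 2.93 in CL7, against 3.88 in FL2, 17.5 in FL5 and 14.99 in FL12. Both calls were often lost, since Mki67 kept its call in 3 of 14 alternatives (adjusted p from 0.00503 to 0.157) and Cenpf in 7 of 13 (0.0073 to 0.0967). Endothelial markers, led by Kdr, had 1 of 6 upregulated, Vwf, with a call kept in 5 of 14 alternatives (adjusted p from 0.00487 to 0.0989), and 4 of 6 with a log2 difference above 0, unscaled and relative. Cholangiocyte markers, led by Epcam, had 0 of 5 upregulated and 3 of 5 above 0, unscaled and relative. At the 9.29% of all genes upregulated, lists this short would hold few calls. Of the 10 hepatocyte markers, led by Alb, 0 were called by limma in either direction and 2 had a positive difference at an unadjusted p under 0.05, and none was at 0. Limma's standard error for Alb was 0.98, although Alb averaged 32272 ± 1010 FPKM in CL rats and 24803 ± 572 FPKM in FL rats (SD). For Ttr and Serpina1 it was 0.42 and 0.36, so for these abundant genes the lack of a call says little. Of the 10 markers, 5 had a log2 difference above 0. Their sum, 43945 to 46387 FPKM in the CL rats, was 34880 to 37423 FPKM in the FL rats, while without Alb and Ttr the other 8 summed to 6856 to 6930 FPKM in the CL rats and 7337 to 7806 FPKM in the FL rats. In 4 of the 10, Alb, Ttr, Hnf4a and Ass1, each FL rat lay below each CL rat (against 4.78% of all genes), and 2 of 10 had a relative log2 difference above 0 (median -0.39).

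The factors of the TFEB family bind elements with the core CACGTG, so the promoters of the members were searched for it in the RefSeq sequences of build GRCr8, from 250 bases before to 50 bases after each gene's start. Of the 43 genes, 34 matched an entry in the promoter table used here, and Ctsb, Hexa, Psap, Asah1, Ppt1, Arsa, Arsb, Atp6v0d2 and Atp6v1b2 were not matched. CACGTG, which reads the same on both strands, was found in 8 of the 34 (23.5%, against 6.42% of all 33469 promoters and 7.01% of the 21842 of protein-coding genes). TCACGTG, searched on both strands and contained in the first set, was found in 7 (20.6%, against 3.20% and 3.68%), and TCACGTGA in 3, Ctsd, Lamp1 and Mcoln1 (8.82%, against 0.777% and 1.02%). Of the 7 upregulated genes with a promoter, 2 held CACGTG, Ctsd and Cd63, and the other 6 holders, Lamp1, Mcoln1, Gaa, Glb1, Idua and Sgsh, were not upregulated. Lamp1 held the core 5 times, Ctsd and Mcoln1 2 times each and the rest 1 time each. The matches are a description of these windows. For each site of the upregulated genes and for 1 site in each of 4 others, the core is shown in capitals with 14 bases on each side, in the direction of transcription, to set promoters of called and uncalled members side by side. The site shown for Mcoln1 is not its TCACGTGA, which lies at its other site, with the core from 4 bases after the start.
Ctsd, chr1:206968959-206968992, minus strand, core from 157 bases before the start: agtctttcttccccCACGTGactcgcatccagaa
Ctsd, chr1:206968812-206968845, minus strand, core from 10 bases before the start: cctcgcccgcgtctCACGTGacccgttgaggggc
Cd63, chr7:1921940-1921973, plus strand, core from 190 bases before the start: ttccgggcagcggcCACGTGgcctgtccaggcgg
Lamp1, chr16:83075109-83075142, minus strand, core from 65 bases before the start: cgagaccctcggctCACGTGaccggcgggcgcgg
Mcoln1, chr12:6358222-6358255, plus strand, core from 22 bases before the start: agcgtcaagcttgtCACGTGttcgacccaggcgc
Gaa, chr10:105028274-105028307, plus strand, core from 67 bases before the start: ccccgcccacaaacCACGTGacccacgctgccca
Glb1, chr8:122963604-122963637, plus strand, core from 100 bases before the start: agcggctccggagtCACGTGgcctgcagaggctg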

How the data were processed

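RNA from the livers of 3 CL and 3 FL rats was sequenced by the authors after removal of ribosomal RNA. Reads were trimmed (FASTX-Toolkit) and aligned (TopHat2), and from uniquely placed reads the authors computed and deposited FPKM per gene, with 2 decimals. GRCh38 is named as the genome in the submitters' processing notes, whereas the identifiers are Ensembl's for the rat. No scaling between rats is stated, and 2 further columns of values that belong to no sample of the series were not used. Identical values above 0 made up 0.990% to 2.87% of the genes shared by any 2 rats, so no library was a duplicate of another. The depth of each library is not given in the sources used here. An SD is the spread between 3 rats, whereas limma's standard errors also draw on the variance of genes of similar level.

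Because FPKM are not counts, log2(FPKM + 0.1) of the groups was compared with limma (prior variance trended on the mean) and Benjamini-Hochberg adjustment over 14864 genes. Standard errors and 95% confidence intervals are limma's moderated ones. The smallest p of an exact permutation test of 3 rats against 3 would be 0.10, so none was run. The alternatives were other pseudocounts (1 and 0.01), other filters (none, and a mean of at least 1 FPKM), median scaling (over 9201 genes above 1 FPKM in every rat), quantile normalization, no trend, a robust prior, and leaving out each rat. The members and lists were chosen with earlier results of these data known. Each upregulated member, Tfeb and the 6 other members with the highest mean FPKM were given for each rat. The 8 largest increases among the other lysosomal genes and the most abundant gene of each marker list, by mean FPKM over the 6 rats, were named, some of them without values for each rat. Of the 118 symbols of other lysosomal genes, 9 had no entry, and of the 110 entries of the rest 7 lay under the filter. Some listed genes are not reported here by name but are part of the counts and sums. Calculations used R 4.3.3 with limma 3.58.1, tested on simulated data, and Python 3.11.15 (pandas 2.3.3, numpy 2.4.6, matplotlib 3.10.9, scipy 1.17.1).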

Additional observations from a re-analysis of the deposited data

How the results depend on the processing

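Of the 10 upregulated lysosomal genes, 6 (Ctsk, Ctsz, Lgmn, Asah1, Ppt1 and Cd63) kept their call under each of the 14 alternatives, and 0 of the 43 genes were lower under any of them. The number upregulated was 6 with median scaling, without Ctss, Ctsd, Ctse and Atp6v0d2, and 8 to 10 with each rat left out. These were 18.6% to 23.3% of the members with a rat left out, against 4.59% to 12.3% of all genes. The number higher without a fold limit, 20, became 11 with median scaling, 11 with quantile normalization and 8 to 21 with each rat left out. Their median relative log2 difference of 0.20 became 0.30 with quantile normalization and 0.072 to 0.18 with each rat left out. The 14 upregulated genes among the other lysosomal genes became 5 with a pseudocount of 1, 7 with median scaling and 6 with quantile normalization. With each rat left out they became 8 to 16 (7.77% to 15.5%, against 4.59% to 12.3% of all genes). Over all genes, the 1381 upregulated became 462 with a pseudocount of 1, 854 with a mean of at least 1 FPKM, 826 with median scaling, 453 with quantile normalization and 682 (without FL5) to 1833 (without FL2) with each rat left out, and the 139 downregulated became 72 with a pseudocount of 1, 231 with quantile normalization and 80 to 159 with each rat left out. Upregulated genes made up 90.9% of all calls, 82.0% with median scaling and 66.2% with quantile normalization. The cause of these shifts was not tested.

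Differences of uncalled members that turned negative were, with median scaling, Ctsh (-0.090), Hexa (-0.050), Man2b1 (-0.18), Ids (-0.0050), Arsa (-0.17), Lipa (-0.18), Smpd1 (-0.082) and Npc1 (-0.044), and with quantile normalization Man2b1 (-0.0094), Ids (-0.056), Arsa (-0.17) and Lipa (-0.049). With each rat left out, Arsa ran from -0.081 (without FL12) to 0.15 (without CL6), with -0.041 without CL7, and Lipa from -0.062 (without FL12) to 0.12 (without CL5), with -0.011 without CL6. Added to the calls were Tfeb without CL5, Sgsh without CL6, and Grn without FL2 or FL12. No paired analysis was possible because the groups share only 1 replicate number, 5, which stands for different rats. Ctse, Atp6v0d2, Mcoln3 and Atp6v1c2 had low values, from 0.03 to 1.40 FPKM, at which depth limits precision.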
